A study of Mus musculus with 6 samples.

Results

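The 83 genes described here encode the proteins of the cytosolic ribosome in mouse lung alveolar type II (ATII) cells, the cells that make surfactant and act as progenitors of the alveolar lining. They were chosen from 52636 gene rows by name: protein-coding genes with a symbol of Rpl or Rps and a number, plus Rplp0, Rplp1, Rplp2 and Rpsa, without the Rps6k kinases and the names of processed pseudogenes. A floor of 20 CPM (UMIs per 1000000 UMIs) over all cells was then applied. Of the 86 genes the names gave, 83 passed it, 49 with large-subunit and 34 with small-subunit symbols. The 3 under the floor were Rpl3l at 0.254 CPM, Rpl39l at 0.254 CPM and Rpl10l at 0 CPM, and those just above it were Rps19bp1 at 45.1 CPM, Rpl7l1 at 77.6 CPM and Rps27rt at 106 CPM. Rps19bp1 encodes a protein that binds Rps19 and is not itself a ribosomal protein, but the naming rule takes it. The genes lie on 19 chromosomes, 4 of them on X, and together they gave 17.7% of all UMIs (unique molecular identifiers, each marking 1 captured RNA molecule).

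The study addressed how age bears on the response of ATII cells to interleukin 4. Per the labels, 1 expression library holds uncultured cells sorted at day 0 from mice of both ages, young and old, and another holds cells from both ages after culture to day 13. The remaining one holds day 13 cells from young mice only, and each library has a matching library of sample tags. The cultures were alveolarspheres, spheroids grown from ATII cells without serum or feeder cells, which received 10 ng/ml of the cytokine or its carrier PBS from day 3. Every library is labelled IL4Ra WT (wild type for the interleukin 4 receptor chain) and mixed in treatment. Animals therefore share a library, as do the ages except in the library from young mice only. Cytokine and PBS share a library in the cultured ones, since the uncultured cells came before the cytokine was added. No label gives the strain, the sex or the age in months, and the title and the design text give the interleukin different numbers.

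The deposited matrix carries 3 library marks that match no label, so its cells were assigned to no day, age, mouse or treatment. The letters A, B and C stand for these libraries, and their order says nothing of the group. The whole matrix was treated as 1 sample, and there are therefore no replicates and no tests. The intervals given are exact 95% intervals, which cover counting error only, and comparisons were made between cells of 1 library. A total of 36540 cells were kept, 16367 in A, 5593 in B and 14580 in C, with 63658436, 48676834 and 53329664 UMIs. The ATII marker Sftpc stood at 255076, 128764 and 116228 CPM in A, B and C. Of 8 macrophage markers 4 or 5 were at 0 in each library, and the highest was Lyz2, which ATII cells also express. Libraries A and B shared 20 barcodes, A and C 67, and B and C 22.

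A ribosome joins a small subunit, which reads the mRNA, to a large subunit, which forms the peptide bond, and each subunit holds many different proteins made in balanced amounts. The mRNAs of ribosomal proteins belong to the 5′ terminal oligopyrimidine (TOP) class: they begin with a C followed by a run of pyrimidines, and the growth kinase mTOR controls their translation through this run and the protein Larp1. Their genes are among the most highly transcribed in any growing cell, and transcription, translation and mRNA stability each set how much of the protein is made.

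The start sites are shown first because the pyrimidine run at the start is the feature these mRNAs are known for. RefSeq's promoter table (GRCm38.p6, 250 bases before to 50 after each annotated start) held 74 promoters of 63 of the 83 genes. Each line below gives 30 bases on the strand of the gene, from 10 before the annotated start, with the longest run of C and T in capitals. The first 6 are standard ribosomal proteins, chosen after their sequences were seen: 5 with long runs in these 30 bases and Rpl10 with a short one. Rps27rt, a retrocopy of Rps27, follows its source gene, and Rpl7l1 and Rps19bp1 are the members with the lowest counts beside it.
Rpl35 (chr2:39005112-39005141, minus): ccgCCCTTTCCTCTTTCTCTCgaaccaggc
Rpl15 (chr14:18270967-18270996, minus): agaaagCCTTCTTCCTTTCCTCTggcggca
Rps10 (chr17:27635225-27635254, minus): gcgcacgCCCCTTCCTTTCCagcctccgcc
Rps6 (chr4:86857348-86857377, minus): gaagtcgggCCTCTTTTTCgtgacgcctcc
Rps27 (chr3:90213629-90213658, minus): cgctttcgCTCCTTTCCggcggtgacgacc
Rpl10 (chrX:74270806-74270835, plus): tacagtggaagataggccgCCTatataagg
Rps27rt (chr9:114982720-114982749, minus): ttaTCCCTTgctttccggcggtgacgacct
Rpl7l1 (chr17:46782637-46782666, minus): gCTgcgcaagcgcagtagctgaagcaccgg
Rps19bp1 (chr15:80264287-80264316, minus): cggaagtagCTCgccgcgtgtgggcggggc

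The runs measured 18 bases in Rpl35, 17 in Rpl15, 13 in Rps10, 10 in Rps6, 9 in Rps27, 3 in Rpl10, 6 in Rps27rt, 3 in Rps19bp1 and 2 in Rpl7l1. Short runs in the printed span also stood in other standard members, such as Rpl5 and Rpl41 with 3 bases each. Rpl10, Rpl5 and Rpl41 had longer runs nearby, of 10, 9 and 10 bases from 20 before to 50 after the start. In that window the longest run measured 7 bases in Rps27rt and 3 each in Rpl7l1 and Rps19bp1. From 20 bases before to 50 after the start, a run of at least 8 pyrimidines on the strand of the gene stood in 50 of 74 member promoters (67.6%) and in 25.4% of all 32851 promoters in the table. Over the whole 300-base window of each promoter, on both strands, CCGGAAG, the core bound by ETS factors, stood in 35.1% of member promoters and 8.86% of all. ATGGCGG, part of the sequence bound by YY1, stood in 18.9% and 4.05%, and TATAAA, the TATA box, in 9.46% and 13.6%. The reverse strand of CCGGAAG holds 5 pyrimidines in a row and so can overlap a pyrimidine run. These are matches of letters in a window and not shown sites.

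Ribosomal protein genes gave 7.28% of the UMIs of library A (95% interval 7.28 to 7.29%), 23.20% of library B (23.19 to 23.22%) and 25.26% of library C (25.25 to 25.27%). Library A stood apart. The quartiles over its cells were 6.35 and 8.22%, while those of B were 20.8 and 25.7% and those of C 23.1 and 27.9%. In UMIs, the median cell held 272 of these molecules in A, 1922 in B and 867 in C, at median totals of 3749, 8349 and 3341. Library C thus had fewer UMIs per cell than A and more ribosomal protein UMIs.

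Other classes of RNA differed between the same libraries. The surfactant proteins Sftpc, Sftpa1, Sftpb and Sftpd took 29.2% of the UMIs in A, 14.7% in B and 13.0% in C, and mitochondrial transcripts took 2.51%, 0.830% and 0.634%. With surfactant, mitochondrial and Retnla UMIs removed from the total, the ribosomal protein share was 10.7%, 27.9% and 30.03%. Airway secretory markers summed to 2568 CPM in A, 146 in B and 77.4 in C, and the 8 proliferation markers to 67.7, 367 and 430 CPM. Fewer cells of a type and less RNA per cell cannot be told apart in these summed values, and their part in the library difference was not tested.

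**Figure D1:**
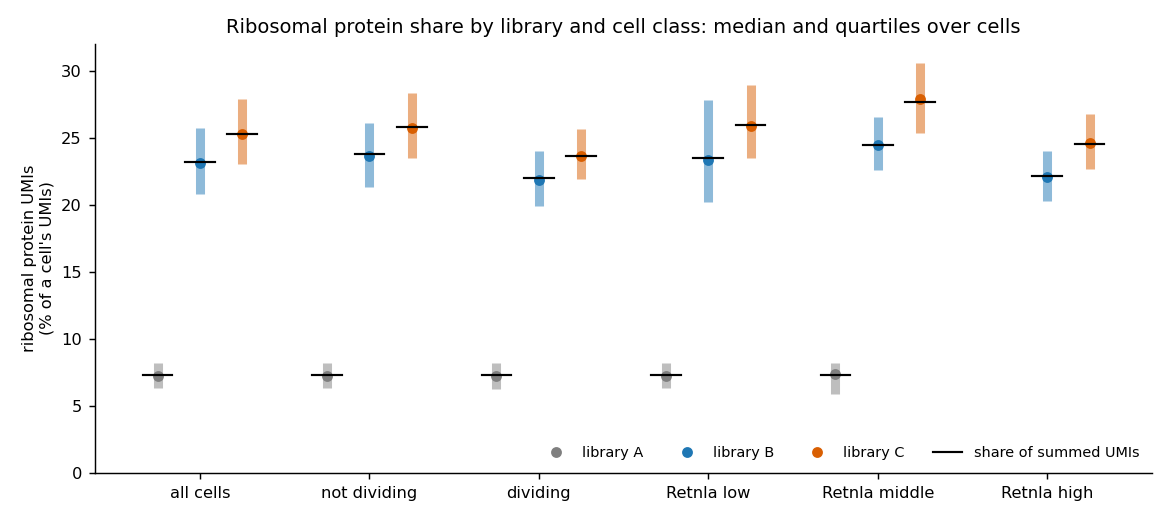
Share of each cell's UMIs that came from the 83 ribosomal protein genes (y axis, percent), by class of cell and library; dots are medians over cells, thick bars the quartiles, black lines the share of the summed UMIs. The medians of library A lay between 7.26 and 7.40%, and those of B and C between 21.8 and 27.9%.

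The balance of the subunits was nearly the same in the 3 libraries. Genes with large-subunit symbols gave 52.1% of the ribosomal protein UMIs in A, 52.3% in B and 52.5% in C. In dividing cells the large-subunit share was 52.1%, 52.1% and 52.0%. All 83 genes were detected in each library, and the median cell had at least 1 UMI of 71 of them in A, 81 in B and 78 in C.

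The 10 members with the most UMIs included Rpl41, Rps24, Rpl32 and Rps14. Rps24, a small-subunit protein, stood at 1886 CPM in A, 6874 in B and 7215 in C. Rpl32, of the large subunit, stood at 1397, 6655 and 7298 CPM, and Rps14, which lies by the mRNA exit of the small subunit, at 2025, 4268 and 5135 CPM. All 10 were lowest in A, in which every member had a lower CPM than in B.

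Single genes were less even between libraries. Rps2, at the mRNA entry channel of the small subunit, held 1.27% of the ribosomal protein UMIs of A, 3.16% of B and 2.66% of C. Rpl21 held 4.03%, 1.90% and 1.66%, and Rps19, a small-subunit protein mutated in Diamond-Blackfan anaemia, held 3.61%, 1.98% and 1.24%. Rpl41, which encodes the shortest ribosomal protein, held 2.44%, 2.93% and 3.85%. The order of libraries therefore differed from gene to gene. At the other end Rpl7l1 held 0.0439%, 0.0439% and 0.0435%, and Rpl22 held 0.947%, 0.913% and 0.923%.

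Libraries B and C had similar summed shares but differed in some members. Rpl35 stood at 102 CPM in A, 456 in B and 1844 in C. Rpl10, a late-joining large-subunit protein at the peptidyl transferase centre, stood at 558, 773 and 2470.4 CPM. Both were thus highest in C. Rpl15 stood at 204, 1159.7 and 438 CPM, Rpl27 at 348, 1308 and 473 CPM, Rpl27a at 309, 1074 and 476 CPM, and Rpl36al at 313, 738 and 271 CPM. These 4 were highest in B. Between B and C, 4 of 83 members differed at least 2-fold with more in B, against 2.16% of all 4762 genes measured, and 2 with more in C, against 1.30%. Rpl35, Rpl15, Rpl27 and Rpl27a were named here after their values had been seen.

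The make-up of the pool differed far less between classes of cells in 1 library than between libraries. Across the 83 genes, the log2 shares of the pool had a Pearson correlation of 0.930 between A and B, 0.863 between A and C and 0.924 between B and C. Between dividing and other cells the correlation was 0.998, 0.999 and 0.997 in A, B and C. These are descriptions across genes that share libraries. The largest log2 difference in pool share was 1.89 between B and C (Rpl35) and 0.37 and 0.44 between dividing and other cells of B and C. Near-identical copies bear on the level of single genes, since 60 members have named pseudogenes and reads shared with a copy can be split or lost in counting. The 298 other ribosomal-named rows, pseudogenes and genes that are not protein coding, summed to 483 CPM in A, 1476 in B and 1426 in C. Their part in the library differences of single genes was not tested.

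**Figure D2:**
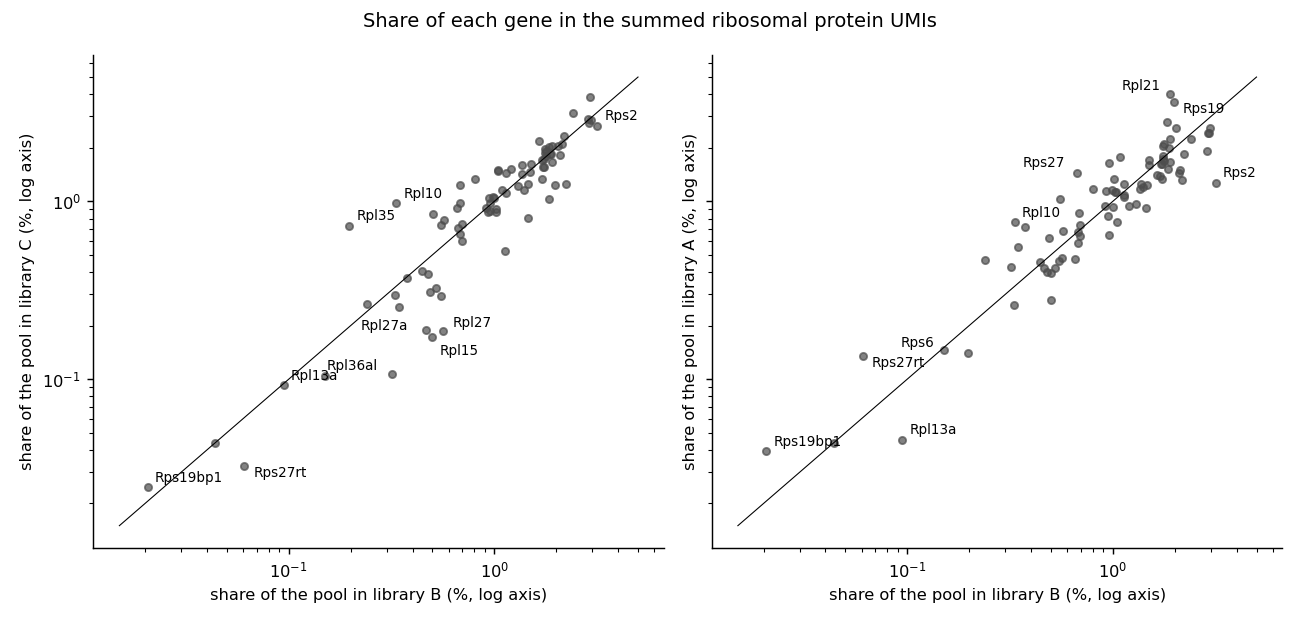
Share of each of the 83 genes in the summed ribosomal protein UMIs of a library (percent, log axes), library C against B on the left and A against B on the right; the line marks equal shares. Rpl35 and Rpl10 lie above the line on the left, Rpl15, Rpl27, Rpl27a and Rpl36al below it, and Rps2 lies below it on the right.

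Dividing cells, taken as cells with any UMI of Mki67 or Top2a, 2 genes expressed in proliferating cells, had a lower ribosomal protein share in libraries B and C. Library A had 171 such cells (1.04%), B 1512 (27.0%) and C 2558 (17.5%). The share was 7.29% in dividing and 7.28% in other cells of A, 22.0% and 23.8% in B, and 23.6% and 25.8% in C. On the log2 scale the difference was 0.002 in A (-0.010 to 0.014), -0.114 in B (-0.116 to -0.112) and -0.128 in C (-0.130 to -0.126). In library A, 149 of the 171 cells had a single UMI of these genes.

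In B and C the share was lower with each step in Mki67 and Top2a UMIs. In A it was 7.36% in cells with 1 UMI and 7.28% in cells without either gene, and the further steps had under 50 cells. In B it was 23.1% in cells with 1 UMI, 22.0% with 2 to 4 and 20.9% with 5 or more. In C it was 24.5%, 23.7% and 22.7%. Depth moved along with this: the median cell of B had 7741 UMIs without either gene and 12486 with 5 or more, and the share was also lower in deeper cells, at 24.3% in the shallowest and 22.7% in the deepest of 4 equal bins of cells by UMIs. Within these 4 bins the log2 difference between dividing and other cells was -0.18, -0.09, -0.07 and -0.12 in B and -0.15, -0.08, -0.06 and -0.08 in C, from the shallowest to the deepest. In library A the bins gave -0.16, 0.03, -0.02 and 0.06. The dividing class was thus lower at each depth in B and C, while A had no single direction.

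In count of molecules dividing cells held more. The median dividing cell of B had 2262.5 ribosomal protein UMIs against 1793 in other cells, and that of C had 1240 against 820. The share and the number per cell therefore went opposite ways in both libraries. However, a cell joins the class once a UMI of Mki67 or Top2a is seen, which favours deeply sampled cells. The median total was 10266.5 UMIs in dividing and 7741 in other cells of B, and 5213.5 and 3141 in C. The higher number is thus partly built into the class, and total UMIs per cell depend on capture as well as on RNA content. Markers of other states moved with the class: ATI markers summed to 1022 CPM in dividing and 1467 in other cells of B and to 1197 and 2607 in C, and surfactant took 11.5 and 13.5% of UMIs in C. Their part in the share was not tested.

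**Figure D3:**
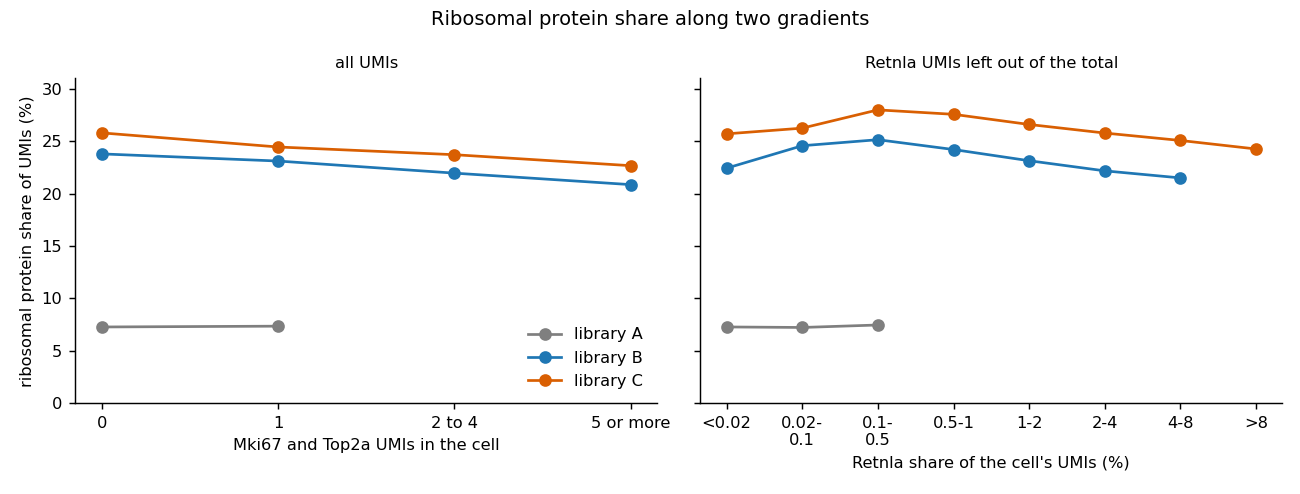
Ribosomal protein share of summed UMIs (y axis, percent) by the number of Mki67 and Top2a UMIs in the cell (left) and by the Retnla share of the cell (right, Retnla UMIs left out of the total); points are classes with at least 50 cells, lines join the classes of a library. On the left B went from 23.8 to 20.9% and C from 25.8 to 22.7%; on the right both were highest at a Retnla share of 0.1 to 0.5%.

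No member passed the fold rule, an absolute log2 fold of at least 0.5 with at least 20 CPM in either class, in any library. Among all genes measured, 10.8% were higher and 3.17% lower by this rule in A, 11.4% and 1.30% in B, and 23.8% and 4.55% in C. The median of the members was -0.003 in A, -0.115 in B and -0.131 in C, and that of all measured genes 0.073, 0.145 and 0.192. Against the median of all genes, the summed members stood at -0.26 in B and -0.32 in C. TMM scaling shifted that median to -0.06 and -0.10, and the gap to it was then -0.25 and -0.30. This scaling moves members and all other genes nearly alike, so it could hardly change the gap and is no second check of it. In B and C together, 68 of 83 members (81.9%) lay below 0 in both libraries, against 24.6% of all genes, and 11 (13.3%) lay above 0 in both, against 64.0%. With TMM scaling 80 lay below 0 and 0 above 0 in both. Most members lie far above the floor, and the background depends on it. With a floor of 50 CPM the median of all genes was 0.045 in A, 0.091 in B and 0.118 in C. Against it the summed members stood at -0.205 in B and -0.246 in C. Shares among genes of like level were not computed.

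**Figure D4:**
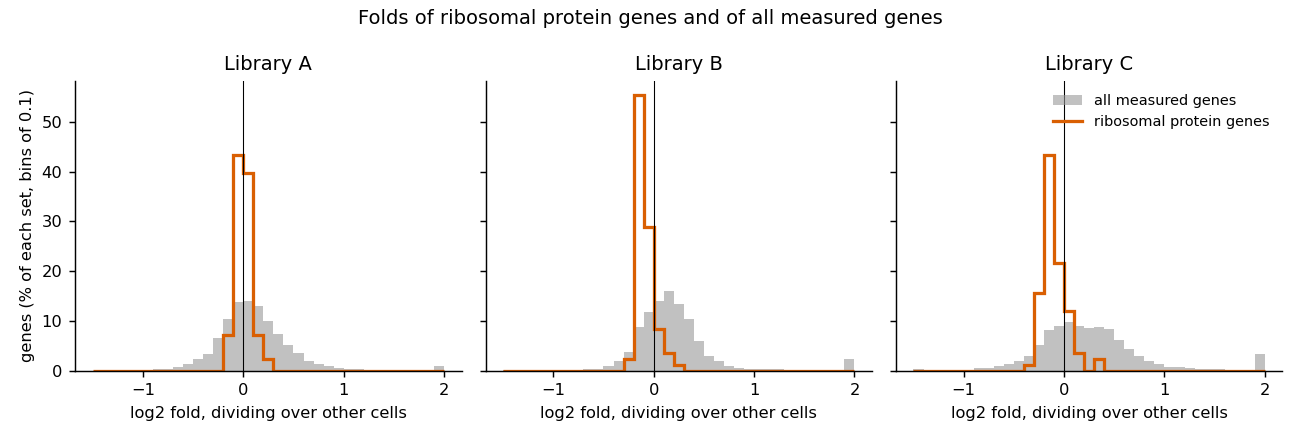
Distribution of log2 folds between dividing and other cells (x axis) for the 83 ribosomal protein genes (orange outline) and all measured genes (grey), as percent of each set in bins of 0.1, by library; values beyond the axis stand in the end bins. The members form a narrow peak, centred near 0 in A and near -0.1 in B and C, inside the wider spread of all genes.

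Among large-subunit genes, Rpl21 stood at 2778 CPM in dividing and 2939 in other cells of A, 4070.4 and 4579 in B, and 3665 and 4371 in C. Its log2 folds were -0.08 (-0.14 to -0.02), -0.17 (-0.18 to -0.16) and -0.25 (-0.27 to -0.24). Rpl36 had folds of -0.06, -0.17 and -0.23 and Rpl29 of -0.04, -0.14 and -0.25. These 3 were lower in dividing cells of all 3 libraries, with intervals that included 0 in A for all but Rpl21. Rpl11, which with Rpl5 and the 5S RNA binds Mdm2 when ribosome assembly fails, had folds of -0.02, -0.17 and -0.23. Its partner Rpl5 had 0.02, -0.02 and 0.02, so the members of this pair differed in B and C. Rpl3, at the peptidyl transferase centre, had 0.08, -0.04 and -0.09.

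The stalk of the large subunit, which recruits the GTPase factors of translation, is built from Rplp0, Rplp1 and Rplp2. Rplp0 stood at 696 CPM in dividing and 704 in other cells of A, 2783 and 3137 in B, and 2829.6 and 3187 in C, with log2 folds of -0.02, -0.17 and -0.17. Rplp1 had folds of 0.09, -0.09 and -0.06, and Rplp2 of 0.09, -0.05 and 0.01. The anchor Rplp0 was thus further below 0 than its 2 partners in both B and C.

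Among small-subunit genes, Rps28 had folds of -0.12, -0.19 and -0.17 in A, B and C, and Rpsa, which also occurs as a laminin receptor, 0.06, -0.10 and -0.11. Rps27a, whose product is made as a fusion with ubiquitin, had -0.02, -0.11 and -0.11. Rps6, the substrate of the S6 kinases, stood at 125 CPM in dividing and 106 in other cells of A, 355 and 348 in B, and 275 and 260.5 in C. Its folds were 0.25 (-0.06 to 0.54), 0.03 (-0.02 to 0.07) and 0.08 (0.02 to 0.13). Only in C did the interval of Rps6 leave out 0.

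Of the 5 members with the highest mean fold over the 3 libraries, Rpl13a, Rps6, Rpl7l1, Rps27l and Rps19bp1, 3 are not standard ribosomal proteins. Rps27l, a p53-responsive paralog of Rps27, stood at 195 CPM in dividing and 191 in other cells of A, 807 and 742 in B, and 878 and 710 in C. Its log2 folds were 0.02 (-0.22 to 0.26), 0.12 (0.09 to 0.15) and 0.31 (0.28 to 0.34). Rps27 itself had -0.04, -0.14 and -0.17, so Rps27l lay above its paralog in each library. The retrocopy Rps27rt had 0.09, -0.15 and -0.27, but its reads and those of Rps27 are hard to tell apart.

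Rps19bp1, a nucleolar protein that also acts on the deacetylase Sirt1, had folds of 0.06 (-0.61 to 0.67), 0.17 (0.05 to 0.29) and 0.30 (0.20 to 0.42), at 28.7 to 72.7 CPM. Its partner Rps19 had -0.03, -0.17 and -0.22. Rpl7l1, a paralog of Rpl7, had 0.09, 0.26 and 0.05, and Rpl7 0.03, -0.12 and -0.22. Rpl22l1, the paralog of Rpl22, had -0.08, 0.01 and 0.02, and Rpl22 0.15, -0.15 and -0.21. Rpl36al had -0.04, -0.00 and -0.02 beside -0.14, -0.12 and -0.12 for Rpl36a. In each of these 4 pairs, Rps19bp1 with Rps19 included, the standard member was lower than the related gene in both B and C. Rpl13a had 0.29 (-0.27 to 0.82) in A, -0.01 in B and 0.03 in C, at 33.1 to 237 CPM.

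Besides Rps27l, Rps19bp1, Rpl7l1, Rpl22l1 and Rps6, the genes above 0 in both B and C included Rpl12, Rpl23a, Rps15 and Rps25, named after their values were seen. Rpl23a, at the exit of the peptide tunnel, had the highest folds of these 4, 0.14 in B and 0.17 in C. None of the 11 was above 0 in both with TMM scaling. Of 9 of these 11 with a promoter in the table, 7 had a pyrimidine run of at least 8 bases, as did 41 of 54 other members. Across the 83 genes the folds of B and C had a Pearson correlation of 0.898 and a Spearman correlation of 0.926, given as a description of 2 libraries processed alike.

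**Figure D5:**
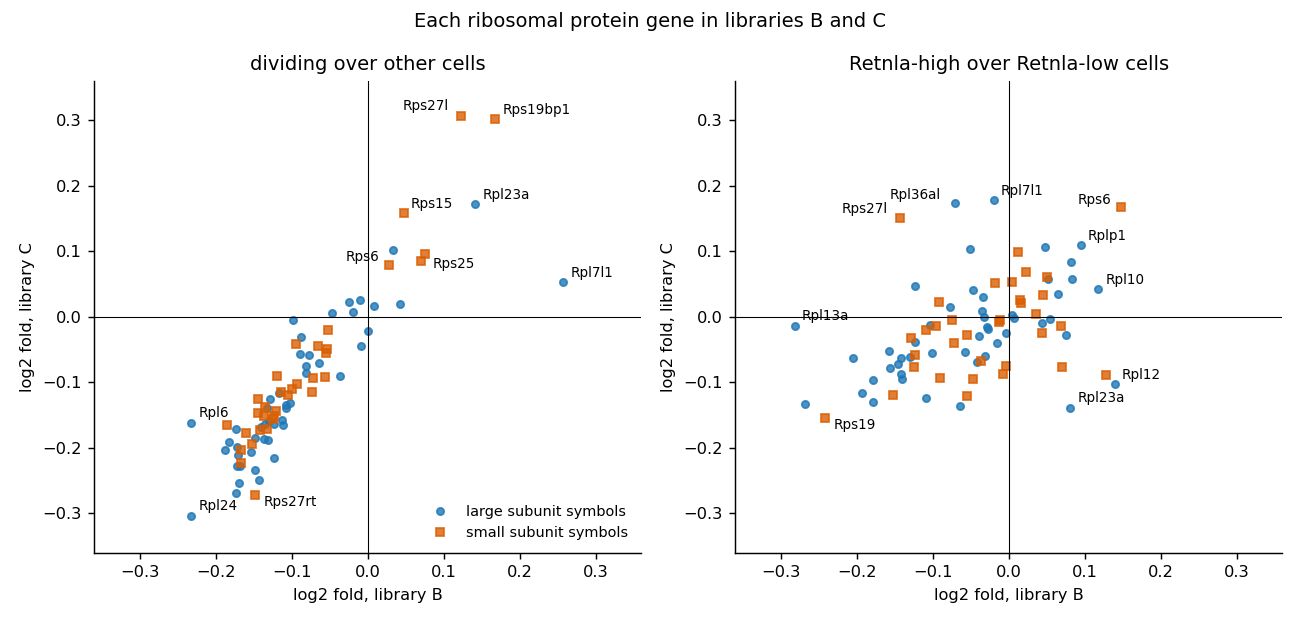
Log2 fold of each of the 83 genes in library B (x axis) and library C (y axis), for dividing over other cells (left) and Retnla-high over Retnla-low cells (right); circles have large-subunit and squares small-subunit symbols. On the left 68 genes lie below 0 in both libraries and 11 above 0 in both, without TMM scaling; on the right the points spread around 0.

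Of 37 listed ribosome biogenesis genes, 26 were measured in both B and C. By the fold rule 8 were higher in dividing cells of both. The rule called 11.4% of all genes higher in B and 23.8% in C, and the share called in both was not computed. As for all genes, 20 CPM in either class sufficed, so a gene near the floor can enter through the dividing class alone. Of the 26, 23 lay above 0 in both libraries, against 64.0% of all genes, and 3 below. Their medians were 0.35 and 0.42 beside 0.145 and 0.192 for all genes. The 8, listed after their values were seen, were Ncl, Nop56, Nop58, Dkc1, Gar1, Nolc1, Tcof1 and Ddx21. Nop56, a core protein of box C/D RNPs that methylate ribosomal RNA, stood at 48.5 CPM in dividing and 26.6 in other cells of B and at 67.6 and 30.3 in C, with folds of 0.84 and 1.13. Tcof1, a nucleolar factor of ribosomal RNA synthesis, had 0.92 and 1.19. At the low end were Polr1c, with -0.16 and -0.31, and Polr1d, with -0.10 and -0.24, both subunits shared by RNA polymerases I and III. The lists were not recomputed with TMM scaling.

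Of 17 measured translation factors and other TOP mRNAs, none was lower in both libraries by the fold rule. That rule called only 1.30% of all genes lower in B and 4.55% in C, so a short list would seldom hold such a gene. Among them 12 lay below 0 in both, against 24.6% of all genes, and 3 above, against 64.0%, with medians of -0.12 and -0.07. Among them Eif3f had -0.27 and -0.38 and Eif3h -0.24 and -0.35, while Nap1l1, a histone chaperone, was higher by the fold rule at 0.66 and 0.72. Fau, which encodes a small-subunit protein without an Rps symbol, had -0.24 and -0.38, and the ribosome-bound Rack1 had -0.07 and -0.08. Of 73 mitochondrial ribosomal protein genes, 53 were above 0 in both, against 64.0% of all genes, and 9 below, against 24.6%. Their medians were 0.16 and 0.15 beside 0.145 and 0.192 for all genes, and 3 were higher by the fold rule in both. Of all genes, 11.4% were higher by the rule in B and 23.8% in C, and the share higher in both was not computed. Of 10 listed genes of TOP and growth control 5 were measured, and 4 of these were above 0 in both, with medians of 0.38 and 0.61. Of 6 listed genes of ribosome quality control, the 3 measured were all above 0 in both. No gene of these lists was lower by the fold rule in both libraries.

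Retnla encodes a secreted protein of the resistin family that interleukin 4 is known to induce through Stat6, and the cells were therefore also compared by the Retnla share of their UMIs. Cells with at least 1% numbered 2 in A, 2310 in B and 7595 in C, and those under 0.1% numbered 16304, 1567 and 6018. These are ranges of a per-cell share and not cell types, and the treatment of the cells is not known. Library A had too few high cells to compare. With Retnla left out of the total, ribosomal protein genes gave 22.7% of UMIs in high and 23.5% in low cells of B, and 25.6% and 25.9% in C. The log2 differences were -0.051 (-0.053 to -0.049) and -0.021 (-0.022 to -0.019), and they turned to 0.066 and -0.0011 with TMM scaling. Without surfactant, Retnla and mitochondrial UMIs in the total both lay above 0, at 0.028 in B and 0.018 in C.

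The share did not change in 1 direction with the Retnla level. In B it was 22.4% under a Retnla share of 0.02%, 25.2% at 0.1 to 0.5% and 21.5% at 4 to 8%. In C it was 25.7%, 28.0% and 25.1% in the same ranges. Both libraries had their highest share between 0.1 and 0.5% of Retnla. In the 4 bins of cells by UMIs, from the shallowest to the deepest, the high-to-low difference was -0.20, -0.03, -0.05 and 0.12 in B and -0.07, -0.02, 0.00 and 0.03 in C. The deepest bin was thus on the other side of 0 from the shallowest in both.

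The division class and the Retnla class were also crossed. Among cells with little Retnla, the share (Retnla left out) was 20.9% in dividing and 24.9% in other cells of B, and 23.6% and 26.6% in C. Among cells rich in Retnla it was 21.9% and 23.1% in B and 24.3% and 26.0% in C. Dividing cells were below the others in each pairing. Markers moved along with the Retnla classes: in B the ATI markers summed to 2303 CPM in low and 954 in high cells, the transitional markers to 2859 and 899, and the ATII markers to 132510.4 and 179859. In C the ATI markers summed to 3240 and 1519 CPM in low and high cells. The part of these markers in the comparison was not tested.

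No member passed the fold rule between Retnla-high and Retnla-low cells in B or C. Among all genes measured, 7.31% were higher and 12.8% lower by the rule in B, and 6.20% and 7.29% in C. The median of the members was -0.036 in B and -0.020 in C, beside -0.094 and -0.011 for all genes. In both libraries 45 of 83 members (54.2%) lay below 0, against 43.1% of all genes, and 17 (20.5%) above 0, against 29.0%. With TMM scaling 18 lay below 0 and 38 above 0 in both.

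Rps6 stood at 359 CPM in Retnla-high and 324 in Retnla-low cells of B and at 284 and 252 in C, with log2 folds of 0.15 (0.09 to 0.21) and 0.17 (0.12 to 0.22). The stalk protein Rplp1 had 0.09 (0.08 to 0.11) and 0.11 (0.10 to 0.12), Rpl22l1 0.08 and 0.08, and Rpl10 0.12 and 0.04. TMM scaling raised every fold of this comparison in both libraries, so it could not have taken these 4 below 0. Rpl7l1, the fifth of the highest by mean, had -0.02 (-0.12 to 0.08) in B and 0.18 (0.10 to 0.26) in C.

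At the low end, Rps19 stood at 4304 CPM in Retnla-high and 5090.3 in Retnla-low cells of B and at 3027 and 3369 in C, with folds of -0.24 (-0.26 to -0.23) and -0.15 (-0.17 to -0.14). Rpl19, a large-subunit protein, had -0.19 and -0.12, and Rpl22, an RNA-binding protein of the large subunit, -0.18 and -0.13. Rpl13a, known for its release from the ribosome in the GAIT response to interferon gamma, had -0.28 (-0.35 to -0.21) in B and -0.01 (-0.07 to 0.04) in C. Rps19, Rpl19 and Rpl22 were below 0 in B and C for both the Retnla and the dividing comparison. Other members, such as Rpl21, Rpl29 and Rpl36, shared this.

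The pattern over single members was less alike between libraries here than for dividing cells. Across the 83 genes the folds of B and C had a Pearson correlation of 0.418 and a Spearman correlation of 0.459, and 62 lay on the same side of 0, against 79 for dividing cells. No gene of the other lists passed the fold rule in both libraries, and the share of all genes that did was not computed. Of all genes, 43.1% lay below and 29.0% above 0 in both, and the lists were not recomputed under the scalings that turned the summed share. Of 17 translation factors and other TOP mRNAs, 11 were below 0 in both and 4 above, with medians of -0.08 and -0.02. Of 23 ribosome biogenesis genes, 7 were above 0 in both and 6 below, with medians of -0.07 and 0.17. Of 71 mitochondrial ribosomal protein genes, 28 were above and 17 below 0 in both, and Fau was below 0 while Rack1 was above.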

How the data were processed

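Single cells were measured with the 10x Genomics 3′ kit v3.1 and sample tags, per the labels' protocols. The authors deposited 1 matrix of raw UMI counts per gene and barcode, whole numbers without normalization; bcl2fastq, Cell Ranger 6.0.1 and the builds GRCm38 and mm10 are named in the submitters' processing notes. Their cell calling and doublet steps are not given in the sources used here. GENCODE for GRCm38 named 52489 of 52636 gene IDs.

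Barcodes under 1000 UMIs or 500 genes were dropped, as were those with over 15% mitochondrial UMIs (37 genes), 44 of 36584 in all. No doublet caller was run; leaving out the 5% of cells with the most UMIs was an alternative. Counts were summed over cells of a class and library and scaled to CPM. Log2 folds used a pseudocount of 1 CPM, and exact binomial and conditional 95% intervals cover counting error only. Counts are from 3′ ends and are not divided by length, so levels were not ranked between genes. TMM factors came from edgeR 4.0.16. The log2 fold and its interval were tested on counts simulated from summed cells of library B, with counting error only. This covered neither the sorting of cells into classes nor the TMM scaling and thinning.

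Named genes were the 10 members with the most UMIs, the 5 highest and 5 lowest by mean fold in each comparison, paralogs with the member they resemble, and 10 standard members; only those with a pattern of note are described, and some members are not reported here. The members and lists were chosen with earlier results of these data known. The tag libraries were not used here.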

Additional observations from a re-analysis of the deposited data

Results flagged for a closer look

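For 12 members reported here, the log2 fold between Retnla-high and Retnla-low cells had counting intervals on opposite sides of 0 in libraries B and C. Whether the libraries differ was not tested, and the intervals leave out the spread between animals and cultures. The share of all genes with such intervals was not computed. The signs also depended on the scaling: with TMM, Rplp0, Rpl36al, Rpl18 and Rpl23 lay above 0 in both libraries. Without surfactant, Retnla and mitochondrial UMIs in the total, the same genes and also Rpl35 and Rps18 did so. The values below are without these scalings. Below 0 in B and above 0 in C were Rps27l (-0.14 and 0.15), Rplp0 (-0.051 and 0.10), Rpl6 (-0.12 and 0.047), Rpl36al (-0.071 and 0.17) and Rpl18 (-0.047 and 0.042). Above 0 in B and below 0 in C were Rpl12 (0.14 and -0.10), Rpl23a (0.081 and -0.14), Rps25 (0.13 and -0.089), Rps12 (0.069 and -0.077), Rpl35 (0.075 and -0.027), Rps18 (0.044 and -0.024) and Rpl23 (0.044 and -0.0097).

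Between dividing and other cells, B and C gave no such member, but 4 members had a counting interval above 0 in A and below 0 in both B and C, a difference that was not tested. Rpl22 had 0.15 in A, -0.15 in B and -0.21 in C, and Rplp1 had 0.088, -0.088 and -0.056. Rpl35a had 0.17, -0.11 and -0.16, and Rps4x, the X-linked copy of a small-subunit protein, had 0.12, -0.14 and -0.15; both were named after their values were seen. Library A had 171 dividing cells, 149 of them with a single UMI of Mki67 or Top2a. TMM scaling moved the difference of its summed share from 0.002 to -0.18. It moves all genes of a library alike, so the values of these 4 in A also fall below 0 with it. The share of all genes with such intervals was not computed.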

How the results depend on the processing

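No paired analysis was possible because each group has 1 sample and the comparisons come from no test. No member passed the fold rule in every library compared, in either comparison, under any setting run. In single libraries 6 did with TMM scaling, 11 after thinning and 1 in cells of low Retnla share, all between dividing and other cells. How many of all genes passed under these settings was not computed, so these counts have no background beside them. The number of members stayed 83 with a floor of 5 CPM or of 20 CPM in each library.

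Between dividing and other cells, the log2 difference of the share stayed below 0 in B and C under every setting. It was -0.037, -0.13 and -0.16 in A, B and C without surfactant, Retnla and mitochondrial UMIs, -0.18, -0.32 and -0.40 with TMM scaling, and -0.067, -0.18 and -0.13 after thinning cells to 1000 UMIs. In B it was -0.12 as a mean over cells, in B and C -0.12 and -0.11 without the 5% of cells with the most UMIs, -0.16 and -0.15 with at least 2 UMIs of Mki67 and Top2a, and -0.25 and -0.17 in cells under 0.1% of Retnla. The mean within 4 bins of cells by UMIs, added after seeing the data, was -0.023 in A and -0.092 in C. The members below 0 in both libraries, a count also added after seeing the data, ranged from 66 to 80.

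The small difference by Retnla depended on the scaling. It reversed to 0.028 in B and 0.018 in C without surfactant and mitochondrial UMIs, with 19 members below 0 in both, and was 0.066 and -0.0011 with TMM scaling, with 18. It was -0.091 and -0.034 as a mean over cells, -0.060 and -0.028 after thinning, -0.061 in B without the cells with the most UMIs, -0.059 and -0.023 at 2% against 0.05%, -0.060 and -0.023 split at 0.5%, -0.11 and -0.031 without dividing cells, and -0.042 and -0.016 within the 4 bins. The cause of these shifts was not tested. By library, the median over cells was 7.26%, 23.1% and 25.3% in A, B and C, and the share without surfactant, Retnla and mitochondrial UMIs 10.7%, 27.9% and 30.03%. Depth limits single genes in the 171 dividing cells of A.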
